A study of Homo sapiens with 12 samples.

Results

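CDH1, CDH2, EPCAM, KRT18, VIM, FN1, ZEB1, ZEB2, SNAI1 and SNAI2 are genes commonly read to place a carcinoma cell between an epithelial and a mesenchymal state. These 10 genes were matched by symbol among the 26475 symbols of the deposited table. RNA-seq was performed in MIAPaCa2 (Miapaca2 in the labels), a human pancreatic ductal adenocarcinoma (PDAC) cell line, with 12 libraries in 4 groups of 3. Parental cells and oxamate-resistant cells were each given vehicle or sodium oxamate, a pyruvate analog that competes for lactate dehydrogenase A (LDHA). The labels call these treatments untreated and LDHA inhibitor. The resistant cells were not 1 clone but a polyclonal population that had outlived continuous exposure to oxamate, and all cells of the 4 groups were grown in DMEM with 10% FBS. The dose and the time of treatment before RNA extraction are not in the labels, and nothing says that replicates were separate cultures, so p-values measure only the spread between these libraries, which may be technical.

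In an epithelial cell, E-cadherin (CDH1) holds neighbouring cells together at adherens junctions, EPCAM is a further adhesion protein of the cell surface, and keratins such as KRT18 form the intermediate filaments. In epithelial-mesenchymal transition (EMT), factors of the ZEB and Snail families bind E-box sequences in the promoters of CDH1 and other epithelial genes and repress them, while N-cadherin (CDH2), the filament protein vimentin (VIM) and the matrix glycoprotein fibronectin (FN1) rise. Carcinoma cells often hold features of both states, and PDAC is known for lines that do.

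The values are expected counts, which are estimates of the reads of each gene, and levels are given as CPM, counts relative to the library total scaled by the trimmed mean of M values (TMM). A floor of 3 counts in a library, 0.0283 to 0.0581 CPM, marked levels too low to measure. Tests were edgeR quasi-likelihood tests over 14582 genes, and a gene was called at a Benjamini-Hochberg adjusted p under 0.05. Means are given ± SD over 3 libraries and log2 fold changes with a standard error (SE). This SE was derived from the test, as the size of the log2 fold change over the square root of its F statistic. Bulk RNA was measured, so fewer cells of a type and less RNA per cell cannot be told apart.

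Promoters from RefSeq (GRCh38.p14) were listed for 5 of the 10 genes, with 7 entries for ZEB1, and the stretches upstream of FN1 and ZEB1 are shown because FN1 had the largest difference between the lines among the 5 of these genes that were tested, and ZEB1 has the highest counts of the 4 E-box binding repressors. The FN1 stretch is chr2:215436173-215436318 on the minus strand, 146 bases with no base in an FN1 exon and 57 bases in exons of the antisense gene AC012462.3. Capitals mark TGACGTCA, the cAMP response element, and a CCAAT box. The ZEB1 stretch is chr10:31318167-31318416 on the plus strand, 250 bases that lie in exons of the antisense gene ZEB1-AS1, and capitals mark CAGGTG, the E-box CACCTG read on the opposite strand.
FN1: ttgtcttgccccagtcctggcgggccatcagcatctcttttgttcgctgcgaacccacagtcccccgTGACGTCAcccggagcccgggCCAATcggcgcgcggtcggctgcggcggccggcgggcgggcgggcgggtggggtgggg
ZEB1: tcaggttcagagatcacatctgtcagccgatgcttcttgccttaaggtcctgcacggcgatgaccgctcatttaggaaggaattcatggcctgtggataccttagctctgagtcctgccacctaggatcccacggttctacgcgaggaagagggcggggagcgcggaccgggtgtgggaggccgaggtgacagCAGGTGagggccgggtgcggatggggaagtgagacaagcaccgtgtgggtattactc

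The E-box CACCTG, the cAMP response element TGACGTCA, the CCAAT box and the TATA letters TATAA were searched on both strands, with no overlap between the sites marked here. Among 35116 RefSeq promoters of 27305 genes, the 250 bases before the start held CACCTG in 17.5%, the cAMP response element in 1.65%, a CCAAT box in 32.0% and the TATA letters in 18.9%. CACCTG was in 2 of the 7 ZEB1 windows and in none of those of FN1, VIM, ZEB2 and CDH2. The rest of the 250 bases before the FN1 start, not printed here, also held the TATA letters, 28 bases before it. A match is a description of these letters and not of a bound site.

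The cell adhesion genes were at or near the floor in every group. CDH1 (chr16:68737225-68835548) had 0, 1 and 1 counts in parental cells with vehicle, 0 in each parental library with oxamate, 1, 0 and 0 in resistant cells with vehicle and 0, 2 and 1 in resistant cells with oxamate. Its 6 counts over all 12 libraries left CDH1 under 3 counts in every one of them. CDH2, whose N-cadherin protein replaces E-cadherin in many mesenchymal cells, had 3 counts in all, 1 and 2 of them in parental libraries with oxamate, and was at 0 in 10 libraries. EPCAM (chr2:47345158-47387601) had 14 counts in all and was under 3 counts in 11 libraries, with 3 counts in 1 resistant library with oxamate as its highest value.

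The groups overlapped for CDH1, CDH2 and EPCAM in both comparisons of the lines. With counts pooled over a group, the exact 95% interval of the resistant to parental ratio with vehicle ran from 0.0129 to 14.6 for CDH1, around a ratio of 0.761, and from 0.284 to 8.17 for EPCAM, around 1.52. With oxamate it ran from 0.311 to 24.0 for EPCAM, the 3 against 0 counts of CDH1 allowed any ratio above 0.449, and the 0 against 3 counts of CDH2 any ratio under 2.63. These intervals cover counting error only, and a difference between the lines was not detectable at this depth for these genes. So neither the loss nor the gain of either cadherin can be read from these libraries.

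ZEB2, a repressor of the same family as ZEB1, had 4, 1 and 2 counts in parental cells with vehicle, 0 in each parental library with oxamate, 2, 0 and 1 in resistant cells with vehicle and 2, 1 and 1 in resistant cells with oxamate. It was under 3 counts in 11 of 12 libraries, and its ratio between the lines with vehicle was 0.652 with an interval from 0.109 to 2.86. With oxamate its 4 resistant against 0 parental counts allowed any ratio above 0.717. Each resistant library then held more ZEB2 counts than each parental one, while the interval included 1.

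SNAI2, which encodes Slug, was the low gene whose lines stood apart in both treatments. Its counts were 1, 2 and 0 in parental cells with vehicle and 2, 0 and 2 with oxamate, against 8, 5 and 7 in resistant cells with vehicle and 7, 6 and 7 with oxamate. Every resistant library held more SNAI2 counts than every parental library, although the resistant libraries were the shallower ones. The resistant to parental ratio was 10.1 with vehicle, with an exact 95% interval from 3.01 to 53.3, and 5.43 with oxamate, from 1.82 to 21.8. SNAI2 did not pass the filter on low counts. Without that filter edgeR gave log2 fold changes of 3.14 (SE 0.73, adjusted p = 5.12e-04) with vehicle and 2.34 (SE 0.71, adjusted p = 0.00547) with oxamate, values that depend on the prior count at this depth. The 8 counts of its highest library remain a very low level.

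**Figure D1:**
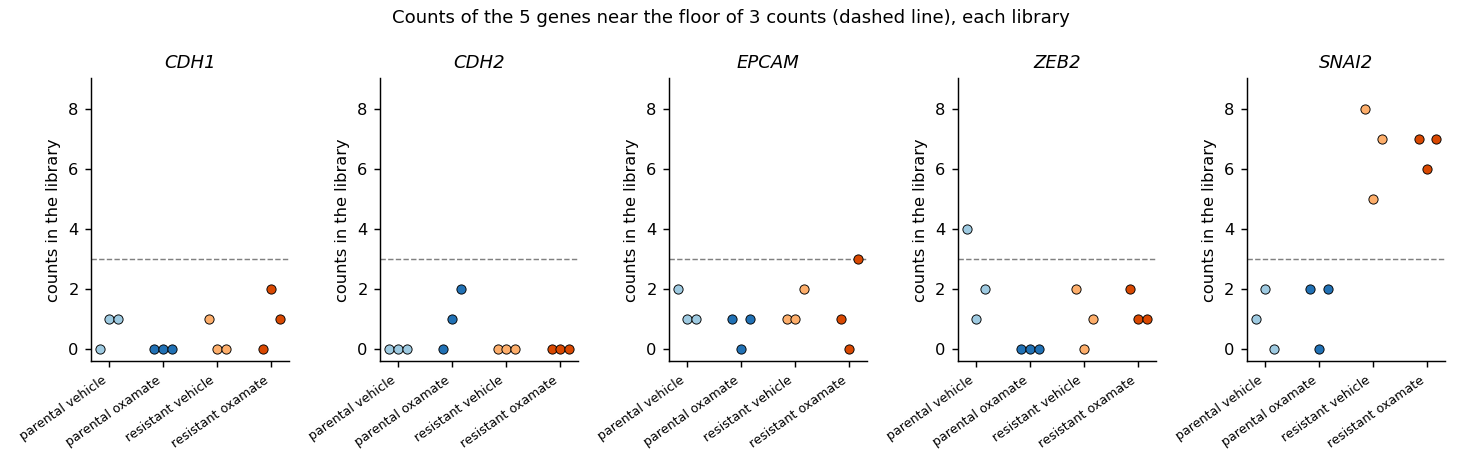
Rounded expected counts in each library (vertical axis, linear) of CDH1, CDH2, EPCAM, ZEB2 and SNAI2 by group, 3 points per group, with a dashed line at the floor of 3 counts. CDH1 and CDH2 stay under the line in all 12 libraries, and the 6 resistant libraries of SNAI2 lie between 5 and 8 counts, above its parental libraries at 0 to 2.

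The other 5 genes, VIM, KRT18, FN1, ZEB1 and SNAI1, passed the filter on low counts, each with 17 counts or more in every library. With vehicle, all 5 were called between resistant and parental cells, 1 higher and 4 lower, where 75.7% of all genes tested were called, 38.4% higher and 37.3% lower. With oxamate, all 5 were again called, 1 higher and 4 lower, against 80.3% of all genes, 40.6% higher and 39.7% lower. The lines did not overlap for any of the 5 in either treatment, as was also so for 77.7% of all genes with vehicle and 81.3% with oxamate. At the threshold of the study, an unadjusted p under 0.05 and over 1.5-fold, 4 of 5 remained in each treatment against 23.4% and 34.3% of all genes, and ZEB1 was the gene left out. VIM passed it narrowly with vehicle. With library size alone VIM stood at -0.37 and -0.40 and KRT18 at -0.47 and -0.50, vehicle first, under 1.5-fold on that scale, where the medians of all genes were at 0.24 and 0.34. Relative to those medians VIM was at -0.61 and -0.74 and KRT18 at -0.72 and -0.84. The 2 comparisons of the lines share no library, but each shares its libraries with the oxamate comparisons.

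VIM and KRT18, the mesenchymal and the epithelial filament gene, were both lower in resistant cells. VIM (chr10:17228259-17237593, 9 exons) had 9498, 9374 and 9462 CPM in parental cells with vehicle and 6293, 6365 and 6187 CPM in resistant cells with vehicle. With oxamate its levels were 10109.8, 9952 and 9636 CPM in parental cells and 6075, 5917 and 6024 CPM in resistant cells. The highest resistant library was thus far under the lowest parental one. VIM fell by 0.59 on the log2 scale with vehicle (SE 0.02, 1.504-fold lower, adjusted p = 2.07e-12) and by 0.72 with oxamate (SE 0.02, 1.65-fold lower, adjusted p = 8.13e-14).

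KRT18 (chr12:52948871-52952901, 7 exons), the partner of KRT8 in simple epithelial filaments, had 1291, 1239 and 1218 CPM in parental cells with vehicle and 775, 784 and 759.8 CPM in resistant cells with vehicle. With oxamate it had 1358, 1331 and 1292 CPM in parental cells and 756, 731 and 754 CPM in resistant cells. All 6 resistant libraries lay under all 6 parental ones. KRT18 fell by 0.69 with vehicle (SE 0.03, 1.62-fold lower, adjusted p = 2.97e-12) and by 0.83 with oxamate (SE 0.03, 1.78-fold lower, adjusted p = 1.64e-13). Its expected counts, and those of VIM, were not whole numbers in 12 of 12 libraries, so some of their reads were shared out between sequences that read alike, and KRT18 has many processed pseudogenes. The part of this sharing in their levels was not tested, and FN1, ZEB1 and SNAI1 had whole counts throughout.

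FN1 (chr2:215360440-215436172, minus strand, 44 exons in its principal transcript), which encodes the matrix glycoprotein that integrins bind, was higher in resistant cells by far more than any other of the 5. It had 40, 36 and 17 counts in parental cells with vehicle and 24, 21 and 35 with oxamate, against 1048, 1089 and 1230 in resistant cells with vehicle and 1121, 1143 and 1298 with oxamate. In CPM the means were 0.339 ± 0.0568 and 0.445 ± 0.0555 in parental cells and 19.2 ± 1.60 and 21.8 ± 0.336 in resistant cells, vehicle first. FN1 was thus above the floor but low in the parental line, and both resistant groups stood clear of it. It rose by 5.78 on the log2 scale with vehicle (SE 0.10, 54.9-fold, adjusted p = 1.89e-16) and by 5.59 with oxamate (SE 0.10, 48.2-fold, adjusted p = 1.34e-16). The upstream stretch printed above holds the letters of both marked motifs, and no measurement of chromatin or of binding there was analysed here.

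**Figure D2:**
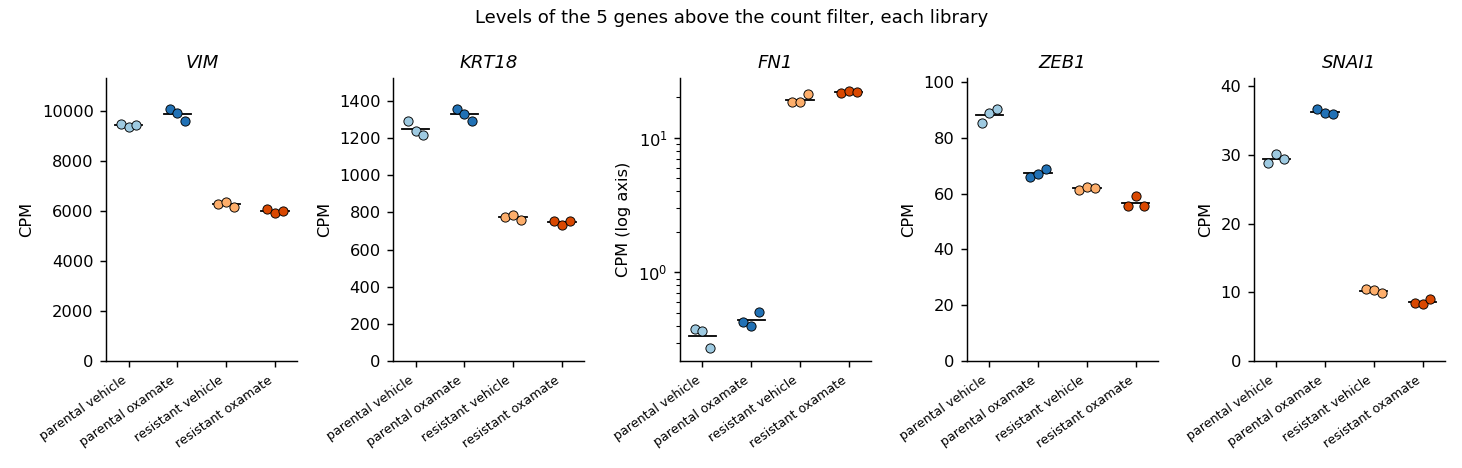
Level in CPM of VIM, KRT18, FN1, ZEB1 and SNAI1 in each library by group, with black lines at the group means of 3 libraries and a log axis for FN1 only. VIM, KRT18, ZEB1 and SNAI1 are lower in the resistant groups, and FN1 moves from means of 0.339 and 0.445 CPM in parental cells to 19.2 and 21.8 CPM in resistant cells.

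ZEB1 and SNAI1, the repressors that act on E-boxes, were both lower in resistant cells. ZEB1 (chr10:31318495-31529814, 9 exons in its principal transcript) had 85.4, 88.7 and 90.4 CPM in parental cells with vehicle and 61.2, 62.3 and 62.2 CPM in resistant cells with vehicle. With oxamate it had 65.9, 67.0 and 69.0 CPM in parental cells and 55.5, 59.2 and 55.5 CPM in resistant cells. The parental oxamate libraries lay between the parental vehicle and the resistant ones, so the gap between the lines was narrower with oxamate. ZEB1 fell by 0.51 with vehicle (SE 0.03, 1.42-fold lower, adjusted p = 4.87e-10) and by 0.25 with oxamate (SE 0.03, 1.19-fold lower, adjusted p = 2.84e-06). The smaller of these rests on the scaling: scaled by library size alone, ZEB1 with oxamate was at 0.08 (adjusted p = 0.0563, the highest of 22 alternatives) on a scale where the median of all genes was at 0.34. Reads of ZEB1-AS1, whose exons hold the ZEB1 stretch printed above, averaged 6.28 to 9.97 CPM in the 4 groups, and the counting is not stated to use strand.

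SNAI1 (chr20:49982999-49988886, 3 exons), which encodes Snail, showed the largest decrease of the 5. Its levels were 28.9, 30.1 and 29.3 CPM in parental cells with vehicle and 10.5, 10.4 and 9.84 CPM in resistant cells with vehicle. With oxamate they were 36.7, 36.1 and 35.9 CPM in parental cells and 8.50, 8.34 and 9.08 CPM in resistant cells. The 4 groups did not overlap with each other, and the gap between the lines was wider with oxamate. SNAI1 fell by 1.52 with vehicle (SE 0.04, 2.88-fold lower, adjusted p = 2.20e-14) and by 2.07 with oxamate (SE 0.04, 4.19-fold lower, adjusted p = 5.59e-16). It thus went the opposite way to SNAI2, whose counts were higher in the resistant line at a far lower level.

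In parental cells, oxamate was followed by small differences, and 4 of the 5 genes were called, 3 higher and 1 lower, where 58.7% of all genes were called, 28.3% higher and 30.4% lower. ZEB1 fell by 0.39 (SE 0.03, 1.31-fold lower, adjusted p = 3.74e-08), from 88.2 ± 2.57 to 67.3 ± 1.58 CPM. SNAI1 rose by 0.30 (SE 0.03, 1.23-fold, adjusted p = 2.28e-06), from 29.4 ± 0.600 to 36.3 ± 0.416 CPM. The 2 repressors therefore moved in opposite directions under the same treatment. KRT18 rose by 0.09 (SE 0.03, adjusted p = 0.0126) and VIM by 0.07 (SE 0.02, adjusted p = 0.0169), and both calls were lost without the first parental oxamate replicate (adjusted p = 0.0552 and 0.0719, within ranges of 0.00226 to 0.683 and 0.00184 to 0.687 over 22 alternatives). The call of VIM was also lost without the second parental vehicle replicate (adjusted p = 0.0549) and that of KRT18 without the third (adjusted p = 0.0626). With library size alone VIM was at -0.01 and KRT18 at 0.01. FN1 stood at 0.37 (SE 0.19, adjusted p = 0.138) and was not called. The groups did not overlap for 5 of 5 genes, as for 61.6% of all genes, and 0 of 5 passed 1.5-fold, which 9.88% of all genes did.

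In resistant cells, the differences with oxamate were smaller still, with 3 of 5 called, 1 higher and 2 lower, where 21.5% of all genes were called, 9.01% higher and 12.5% lower. SNAI1 fell by 0.24 (SE 0.05, 1.18-fold lower, adjusted p = 0.00219), from 10.2 ± 0.342 to 8.64 ± 0.388 CPM. ZEB1 fell by 0.13 (SE 0.03, 1.09-fold lower, adjusted p = 0.0129), a call lost without the first or the third resistant oxamate replicate (adjusted p = 0.0596 and 0.0654, within 0.00451 to 0.0740 over 22 alternatives). FN1 rose by 0.18 (SE 0.06, 1.13-fold, adjusted p = 0.0355), and this call was lost on leaving out any 1 of 5 libraries of the resistant line, the exception being the third with vehicle, and with DESeq2 (adjusted p = 0.0711, within 9.11e-04 to 0.161 over 22 alternatives). The calls of ZEB1 and FN1 rest on few libraries, while that of SNAI1 was kept in 22 of 22 alternatives. VIM stood at -0.07 (SE 0.02, adjusted p = 0.0508) and was called in 9 of 22 alternatives, over which its adjusted p ran from 0.0110 to 0.169. KRT18 stood at -0.05 (SE 0.03, adjusted p = 0.220). The groups did not overlap for 5 of 5 genes against 41.0% of all genes, and 0 of 5 passed 1.5-fold against 2.5%.

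The oxamate responses of the lines were compared within the same model, and 4 of the 5 differed, where 44.2% of all genes did. The response of SNAI1 was lower in resistant than in parental cells by 0.54 on the log2 scale (difference -0.54, SE 0.06, adjusted p = 2.31e-06), higher with oxamate in the parental line and lower in the resistant one. That of ZEB1 was less negative in resistant cells, with a difference of 0.26 (SE 0.04, adjusted p = 1.92e-04). ZEB1 thus kept its direction in both lines and SNAI1 did not. The differences for KRT18 (-0.14, SE 0.04, adjusted p = 0.00968) and VIM (-0.13, SE 0.03, adjusted p = 0.00295) passed with TMM but not with library size alone (adjusted p = 0.482 and 0.346, the highest of 21 alternatives each). For FN1 the difference was -0.19 with a 95% interval from -0.58 to 0.20 (adjusted p = 0.511). For SNAI2, without the filter, the responses were 0.89 in parental (adjusted p = 0.544) and 0.09 in resistant cells (adjusted p = 0.975), neither of them called.

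**Figure D3:**
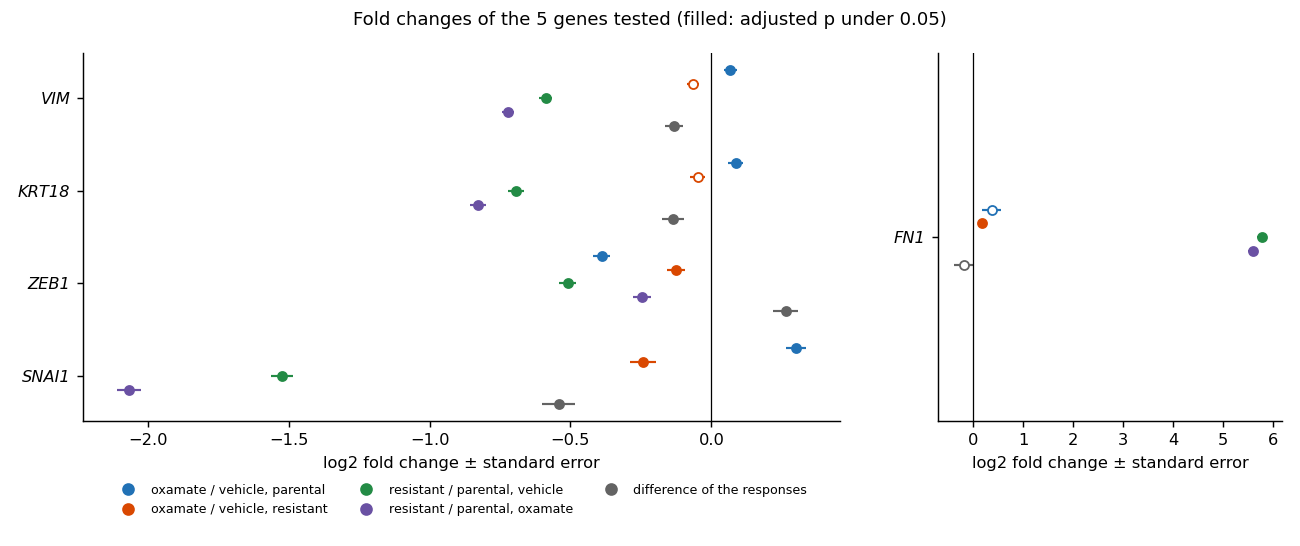
Log2 fold change (horizontal axis) ± SE of the 5 genes tested, FN1 on an axis of its own, for oxamate against vehicle in each line, resistant against parental cells under each treatment, and the difference between the oxamate responses. Filled points passed an adjusted p under 0.05. The comparisons of the lines lie farthest from 0, and SNAI1 stands at 0.30 with oxamate in parental cells and at -0.24 in resistant cells.

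Per kb of the principal transcript, the order of levels was VIM, KRT18, the repressors and FN1 in each group. In parental cells with vehicle VIM stood at 5056 CPM per kb and KRT18 at 799.9 CPM per kb. SNAI1 was at 17.5 ± 0.356 and ZEB1 at 16.3 ± 0.474 CPM per kb, and FN1 was at 0.0429 ± 0.00719 CPM per kb. In resistant cells with vehicle VIM was at 3363, KRT18 at 495, ZEB1 at 11.4 ± 0.110, SNAI1 at 6.07 ± 0.203 and FN1 at 2.43 ± 0.202 CPM per kb. SNAI1 and ZEB1 thus changed places between the lines. Their order in parental cells with vehicle depended on the transcript, since ZEB1 was at 27.4 CPM per kb with its shortest coding transcript. In parental cells with oxamate SNAI1, at 21.5 CPM per kb, stayed above ZEB1, at 20.9 with its shortest. The order of FN1 and SNAI1 in resistant cells with vehicle also depended on the transcript, as FN1 was at 8.04 CPM per kb with its shortest.

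The genes whose pattern was most like each of 4 members over the 12 libraries were named by the smallest root-mean-square difference of centred log2 CPM. Before the logarithm 0.1 was added to each CPM. For FN1 they were ITGA1, an integrin subunit that binds collagen (0.36), and GNG2, a G protein subunit (0.39). ITGA1 averaged 0.0153 and 0.0220 CPM in parental cells, under the floor, and 7.57 and 7.87 CPM in resistant cells. GNG2 averaged 0.113 and 0.0965 CPM against 13.1 and 14.0 CPM. Both genes passed the filter only through the resistant libraries. The added 0.1 narrows differences at such low levels, so their match to FN1 depends on it. For SNAI1 they were INSIG1, a sterol-regulated retention protein of the endoplasmic reticulum (0.07, with means of 166, 204, 60.6 and 45.9 CPM in the order of parental vehicle, parental oxamate, resistant vehicle and resistant oxamate), and PORCN, the acyltransferase of Wnt proteins (0.09). For VIM they were VASP, an actin regulator (0.02), and PDIA4, a protein disulfide isomerase (0.02), and for KRT18 the histone gene H3F3B (0.03) and ADCK3 (0.03). All of these libraries and their scaling are shared between the genes so compared.

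The genes around these members were followed as lists, whose counts stand beside 38.4% of all genes tested higher and 37.3% lower in resistant cells with vehicle, and 40.6% and 39.7% with oxamate. Those shares are with TMM. With library size alone 8540 of all 14582 genes were higher and 2769 lower with vehicle, and 9133 and 2819 with oxamate. Among the keratins, 5 of 10 passed the filter, and with vehicle 1 was higher and 4 were lower in resistant cells, with a median log2 fold change of -0.99 beside 0.03 for all genes. KRT8, the filament partner of KRT18, averaged 1458 ± 52.7 CPM in parental and 676 ± 6.11 CPM in resistant cells (-1.11, SE 0.03, adjusted p = 1.73e-14), and KRT19 went from 647 ± 24.4 to 325 ± 8.01 CPM (-0.99, SE 0.03, adjusted p = 1.20e-13). Expected counts of KRT8, like those of KRT18, were not whole numbers in 12 of 12 libraries, while KRT19 had whole counts. The part of shared reads in the level of KRT8 was not tested. KRT7 was the keratin that rose, by 1.37 (SE 0.29, adjusted p = 5.52e-04), at 0.222 ± 0.0610 against 0.597 ± 0.240 CPM. KRT18, KRT8, KRT19 and MUC1 are 4 of 6 markers fixed for carcinoma cells, and all 4 were lower in the resistant line in both treatments, while the other markers, CDH1 and EPCAM, were at the floor in both lines.

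Of the 9 proteins bound to cadherins, all of which passed the filter, 4 were higher and 5 lower with vehicle, or 5 and 3 with library size alone. CTNNB1, the beta-catenin gene, had 169.6 ± 0.946 CPM in parental and 186 ± 1.43 CPM in resistant cells (0.13, SE 0.02, adjusted p = 1.38e-04), and VCL, vinculin, fell by 0.56 (SE 0.02, adjusted p = 7.27e-12). Of 22 junction genes 19 were tested, with 8 higher and 6 lower, or 14 and 3 with library size alone, so that its share of calls was near the 75.7% of all genes. DSG2, a desmosomal cadherin, rose by 0.50 (SE 0.03, adjusted p = 1.33e-09), and PKP2, plakophilin, fell by 0.52 (SE 0.06, adjusted p = 5.05e-07). Beta-catenin and desmosomal transcripts were thus measured in cells whose CDH1 was at the floor. With oxamate 5 junction genes were higher and 10 lower, which turned to 10 and 5 with library size alone, and CLDN4 (-0.51, SE 0.03, adjusted p = 6.07e-11) and TJP1 (0.55, SE 0.04, adjusted p = 5.64e-09), both of tight junctions, were called in opposite directions.

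Among epithelial regulators, 12 of 18 were tested, with 4 higher and 3 lower with vehicle, or 6 and 2 with library size alone. ELF3, an epithelial transcription factor, rose from 11.3 ± 0.263 to 39.0 ± 1.90 CPM (1.79, SE 0.04, adjusted p = 5.47e-15), and KLF4 fell by 0.64 (SE 0.04, adjusted p = 2.20e-10). Of the other EMT transcription factors 6 of 13 were tested, 2 higher and 3 lower (2 and 2 with library size alone), and TWIST1 and TWIST2, named after their values were seen, were listed at 0 in all libraries. FOSL1 fell from 141 ± 2.99 to 94.7 ± 3.06 CPM (-0.58, SE 0.03, adjusted p = 2.43e-11). The counts of both lists are small, and 37.3% of all genes were lower in the same comparison.

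Of 31 mesenchymal and matrix genes 25 were tested, and with vehicle 6 were higher and 14 lower in resistant cells with a median of -0.21, counts that turned to 11 and 9 with library size alone. CTGF, a matricellular growth factor, rose by less than FN1 did, from 0.726 ± 0.111 to 6.53 ± 1.04 CPM (3.14, SE 0.13, adjusted p = 4.78e-12). TGFBI, a matrix protein, also rose (1.02, SE 0.03, adjusted p = 3.75e-14). COL3A1, a fibrillar collagen gene, went the other way (-1.18, SE 0.04, adjusted p = 4.17e-13). With oxamate 5 were higher and 19 lower, or 9 and 14 with library size alone. In parental cells 18 of the 25 were higher and 2 lower with oxamate, where 28.3% of all genes were higher and 30.4% lower. With library size alone the list had 15 and 4, where 2853 of all 14582 genes were higher and 5922 lower. COL1A2 (0.42, SE 0.02, adjusted p = 7.59e-10) and COL5A1 (0.89, SE 0.06, adjusted p = 8.15e-09) were among those higher. CTGF was lower (-1.44), while FN1 was not called. In the same comparison CD68 (0.42) and CD14 (0.87), both leukocyte markers tested, 2 of 3 fibroblast markers and 4 of 4 nuclear-retained RNAs (median 1.26) were also higher. The fibroblast list shares COL1A1 and COL1A2 with the matrix list, so COL1A2 is counted in both. The part of other cells and of the nuclear RNAs in the count was not tested. In resistant cells 6 were higher and 3 lower with oxamate, beside 9.01% and 12.5% of all genes.

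TGF-beta signalling is a well-known inducer of EMT and of FN1. Of 20 genes of the pathway 19 were tested, with 13 higher and 4 lower with vehicle and 12 higher and 7 lower with oxamate, or 16 and 2 and 17 and 2 with library size alone. Over all genes 38.4% were higher and 37.3% lower with vehicle, and 40.6% and 39.7% with oxamate, all with TMM. With library size alone 8540 of 14582 genes were higher and 2769 lower with vehicle, and 9133 and 2819 with oxamate. TGFBR2, the type II receptor, had 5, 4 and 8 counts in parental cells with vehicle against 530, 503 and 532 in resistant cells (7.08, SE 0.21, adjusted p = 1.03e-13). The ligand TGFB2 had 6, 6 and 5 counts against 269, 267 and 257 (6.11, SE 0.20, adjusted p = 2.59e-13). Both genes passed the filter only through the resistant libraries, where they are high, and both are among the genes counted as higher in each treatment. The co-receptor TGFBR3 (-1.02, SE 0.03, adjusted p = 3.99e-13) and the ligand TGFB3 (-1.16, SE 0.06, adjusted p = 7.94e-11) were lower in the resistant line.

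**Figure D4:**
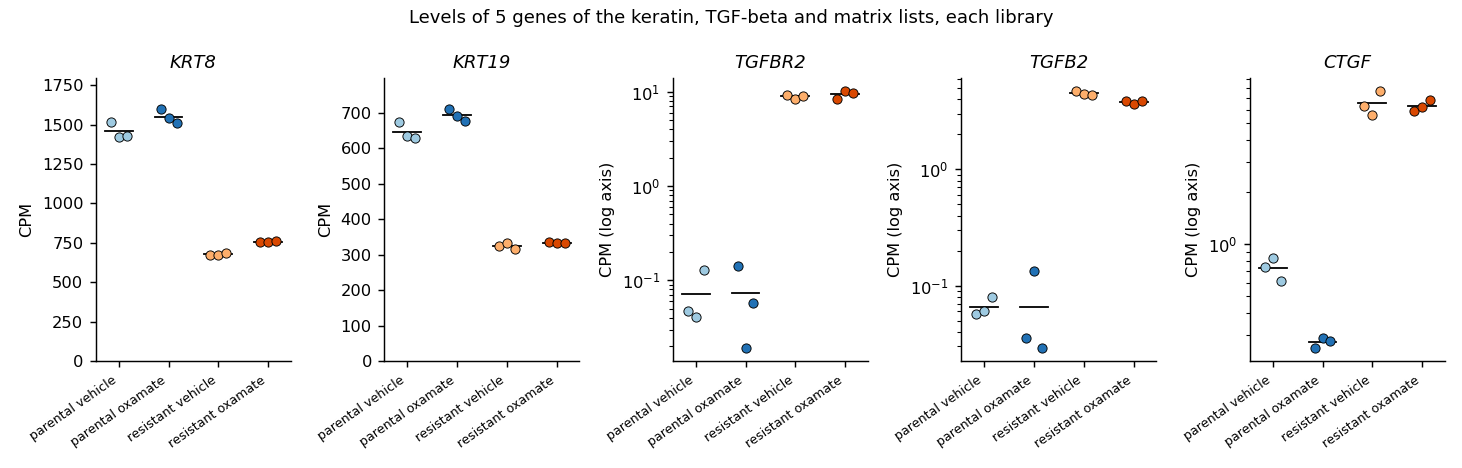
Level in CPM of KRT8, KRT19, TGFBR2, TGFB2 and CTGF in each library by group, with black lines at the group means of 3 libraries and log axes for TGFBR2, TGFB2 and CTGF. The keratins are lower and the other genes higher in every resistant library than in any parental one. These genes were named from their lists by a small p in these same data, so their separation is no further support. The lines did not overlap for 77.7% of all genes with vehicle and 81.3% with oxamate.

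**Figure D5:**
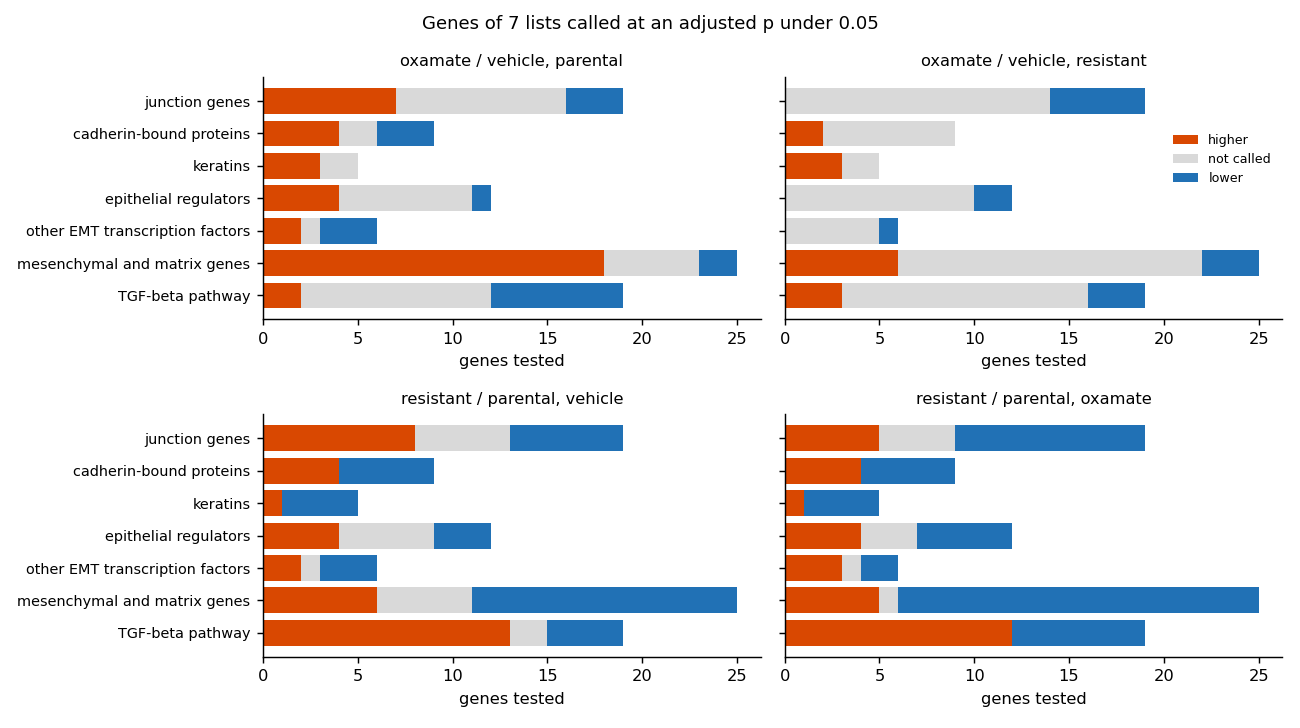
Number of genes tested (horizontal axis) in 7 lists that were higher, lower or not called at an adjusted p under 0.05 in the 4 comparisons. Keratins are mostly lower and genes of the TGF-beta pathway mostly higher in resistant against parental cells. Of all genes 38.4% were higher and 37.3% lower there with vehicle, and 40.6% and 39.7% with oxamate. In parental cells 18 of 25 mesenchymal and matrix genes are higher with oxamate, beside 28.3% of all genes. With library size alone 15 of the 25 were higher.

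The libraries held 46698729 to 114222169 expected counts each, and every parental library was deeper than every resistant one. The third replicates of parental cells with oxamate and of resistant cells with vehicle stood apart in MALAT1, a nuclear RNA, at 596 and 597 CPM against 244 to 289 CPM in the other libraries of those groups, while parental cells with vehicle had 183 to 199 CPM and resistant cells with oxamate 577 to 742 CPM. MALAT1 was thus higher with oxamate in parental cells (1.01, SE 0.29, adjusted p = 0.00802) and in resistant against parental cells with vehicle (0.94, SE 0.29, adjusted p = 0.00894) and with oxamate (0.72, SE 0.29, adjusted p = 0.0319). Of 4 nuclear-retained RNAs 4, 3 and 3 were higher in these comparisons, with medians of 1.26, 1.16 and 0.70. With oxamate in resistant cells 1 of the 4 was called, but 4 passed the study threshold, with a median of 0.77. MALAT1 stood there at 0.79 (SE 0.29, adjusted p = 0.0640). The part of these RNAs in the differences of the members was not tested. Without the 2 libraries that stood apart 4, 4, 5, 5 and 4 of the 5 genes were called. Of all 14682 genes then tested, 8240, 4303, 10816, 11793 and 6900 were called. Both are in the order of oxamate in parental cells, oxamate in resistant cells, the lines with vehicle, the lines with oxamate and the responses. Markers of other cells were checked, since VIM and FN1 are also genes of stroma. The fibroblast markers summed to 695 to 952 CPM per library, nearly all of it COL1A2, while DCN and LUM had at most 2 counts and FAP at most 3 in any library. Leukocyte markers summed to 60.0 to 225 CPM, mostly CD68, with CD3E at 0 and PTPRC at most 3 counts in every library, and endothelial markers to at most 1.24 CPM. CD68 was lower in the resistant line, as VIM was (60.8 ± 1.91 against 160.4 ± 4.11 CPM with vehicle), and its part in the level of VIM was not tested.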

How the data were processed

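Poly(A) RNA of 12 libraries was sequenced. The authors deposited expected counts per gene symbol, which are not normalized: per their processing notes reads were mapped to hg38 with Bowtie2 2.1.0 and counted with RSEM 1.2.15. The methods of the study also name STAR and featureCounts, but 11.6% of the deposited values are not whole, as in RSEM output. They were rounded, and edgeR 4.0.16 (under R 4.3.3) was used: 14582 genes passed filterByExpr (minimum count 10, total 15), and TMM factors, glmQLFit on 4 group means and glmQLFTest followed, with Benjamini-Hochberg adjustment over all genes. Alternatives used DESeq2 1.42.0, limma 3.58.1 (voom), other scalings and filters, a replicate block, the libraries of 1 comparison alone and leaving out each library. The members and lists were chosen with earlier results of these data known. Beside the members, the genes named were those of each list with the smallest p, up to 3 in each direction per comparison. A gene that this rule would name is not reported here. Gene models were those of GENCODE on GRCh38. On simulated counts with 200 genes changed by 1 on the log2 scale, 179 were called with 11 false calls in the comparison of the lines with vehicle. In the comparison of the responses 165 were called with 12 false calls. In the data 75.7% of genes were called between the lines with vehicle, so the simulation does not test the scaling there. The intervals of ratios from pooled counts cover counting error only, while that of the FN1 response was built from the SE derived from the edgeR test, with a normal quantile.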

Additional observations from a re-analysis of the deposited data

Results flagged for a closer look

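A test of whether oxamate acted differently in resistant and parental cells was passed by 4 of the 5 members tested, beside 44.2% of all genes. Each of the 4 is listed here because its effect under the same treatment differed between the lines. SNAI1 differed by -0.54 on the log2 scale, ZEB1 by 0.26, KRT18 by -0.14 and VIM by -0.13, resistant minus parental. The differences of KRT18 and VIM lost their calls with library size alone.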

How the results depend on the processing

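All 5 members tested were called between the lines under every alternative other than the study threshold, with vehicle and with oxamate, except ZEB1 with oxamate under library size alone, where it was at 0.0773 (adjusted p = 0.0563) in place of -0.25. Other exceptions lie in the oxamate comparisons. Scaled by library size alone, 2 members in place of 4 were called in parental cells, where VIM turned to -0.0077, and 2 in place of 4 differed in response. That scaling gave 8775 and 6806 calls over all genes there, in place of 8563 and 6438. At the study threshold 0 members were called in either oxamate comparison and in the difference between responses. Leaving out 1 library gave 2 to 4 members in parental cells, with 2 without the first oxamate replicate, 1 to 4 in resistant cells, with 1 without the first or the third oxamate replicate, 5 to 5 for each comparison of the lines and 4 to 4 for the responses. The cause was not tested. Library size alone shifted the median of all genes to -0.07, 0.03, 0.24, 0.34 and 0.10 in the 5 comparisons, and the share of calls that were higher from 48.2, 41.9, 50.8, 50.6 and 51.5% to 32.5, 59.8, 75.5, 76.4 and 74.2%. Relative to that median VIM in parental cells was at 0.06 and ZEB1 between the lines with oxamate at -0.26. Over all genes, oxamate in resistant cells gave 3139 calls, and 1850, 1795 and 1886 without resistant vehicle replicate 1 or 2 or oxamate replicate 3. At the study threshold the 5 comparisons gave 1440, 365, 3407, 5007 and 1237 calls in place of 8563, 3139, 11038, 11708 and 6438. Of 18 same-numbered pairs of libraries 4 had deviations correlated over 0.1 (r from -0.09 to 0.29, highest between the third replicates of parental cells with oxamate and resistant cells with vehicle), and 0 libraries were closest to their own number in every other group, so the numbers were not treated as pairs. With the replicate block 4, 4, 5, 5 and 4 members were called, VIM in resistant cells being the 1 call that changed (adjusted p = 0.0229). That block gave 8813, 3750, 11160, 11805 and 6798 calls over all genes. Of the single log2 values recomputed, 1833 kept direction and call, 18 lost the call, 9 gained it and 2 reversed. Depth limits CDH1, CDH2, EPCAM, ZEB2 and SNAI2, which have at most 8 counts in a library.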
